A study of Mus musculus with 2 samples.

Results

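Leukocytes of the pressure-overloaded heart were compared between mice that lack CD3e and wild-type mice. All values came from 1 pooled single-cell library of heart CD45+ cells of male mice, which the labels give as C57BL/6N without naming the substrain of each genotype, taken 1 week after surgery and marked with a hashtag per group. CD3e-/- TAC were CD3e knockout mice after transverse aortic constriction (TAC), in which a suture narrows the aorta and raises the pressure against which the left ventricle pumps. WT TAC were wild-type mice after the same surgery. Beside them stood WT sham and CD3e-/- sham, which had the operation without constriction, and wild-type mice with TAC and an antibody to CD8 (CD8 antibody TAC). The mice were 8 weeks old and on a C57BL/6 background, the knockout is carried from birth and in all tissues, and the number of hearts behind each hashtag was not stated. Cells with at least 500 genes and a mitochondrial share of reads of up to 0.4 were kept. These were 919 cells of CD3e-/- TAC and 1615 of WT TAC, 2534 of the 5263 kept cells of the series. Monocytes and macrophages were then taken by a gate of at least 200 CPM (reads of a gene scaled to a total of 1000000) of *Csf1r*, the receptor for macrophage colony-stimulating factor, and at least 2000 CPM of *Lyz2*, a lysozyme. The gate held 672 cells of CD3e-/- TAC and 1095 of WT TAC. *Csf1r* and *Lyz2* chose the gated cells and are no result in them.

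CD3e is an invariant chain of the receptor complex through which T cells read antigen, and T cells cannot mature without it. The heart holds resident macrophages, many of which carry *Lyve1* and *Folr2* and lack the chemokine receptor *Ccr2*, and it is entered by blood monocytes that carry *Ccr2*, with the *Ly6c2* antigen on the classical kind. T cells can act on both through cytokines such as interferon-gamma, which raises the chemokine *Cxcl9* and the MHC genes. Fluid-filled body cavities, among them the pericardium, hold macrophages of their own, which are known for *Gata6*, *Prg4* and *Alox15*.

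Each group was 1 sample, so values are given with no test. A level is the summed reads of a gene in the cells of a group scaled by the total of their reads and given in CPM, a log2 ratio is that of CD3e-/- TAC over WT TAC after adding 10 CPM to both, and a gene is called past the fold where that ratio is at least 1 or at most -1. Intervals are exact 95% intervals that cover counting error only, and reads are not molecules, so they are too narrow for levels. Overlap of the intervals of the groups does not show that their shares are alike. In summed reads, fewer cells of a type and less RNA per cell cannot be told apart. Kept cells had a median of 117788 reads in CD3e-/- TAC and 98869 in WT TAC, and gated cells of 129014 and 101718, so the knockout cells were the deeper ones. No cell barcode was shared between groups. *Ptprc*, which encodes CD45, was read in 96.6% to 98.5% of the kept cells of the 5 groups.

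Most T cell genes followed the genotype labels, while *Cd3e* itself still had reads in the knockout groups. Values run here in the order WT sham, CD3e-/- sham, WT TAC, CD3e-/- TAC and CD8 antibody TAC. *Cd3g*, a partner chain of CD3e, was at 45.6, 0.555, 17.5, 0.0661 and 22.5 CPM. *Trac*, the constant part of the T cell receptor alpha chain, was at 36.7, 1.28, 23.4, 0.433 and 35.9 CPM. Both genes were lower in each knockout group than in each of the other groups. So was *Trbc2*, a segment of the receptor beta chain, at 38.2 CPM in WT TAC and 4.25 in CD3e-/- TAC, whereas its near-identical copy *Trbc1* was at 27.4 CPM in CD3e-/- sham and 25.3 in WT TAC. Cells with at least 100 CPM of both *Cd3g* and *Trbc2* were 42 of 1615 in WT TAC, or 2.60% (1.88% to 3.50%), and 0 of 919 in CD3e-/- TAC. A count of 0 allows a share of up to 0.326% by the limit of 3 cells, and the exact interval reaches 0.401%. *Cd8b1* had 2244 reads in WT TAC and 0 in CD3e-/- TAC. It was at 7.73, 0, 10.7, 0 and 7.74 CPM in the same order, so it did not part CD8 antibody TAC from WT sham. *Trdc*, of the receptor delta chain, was at 14.8, 0, 0, 0.411 and 4.96 CPM, with 0 reads in WT TAC and 56 reads, in 2 cells, in CD3e-/- TAC. *Cd3e*, at chr9:44998735-45009663 (GRCm38.p6), was at 17.8, 3.73, 10.8, 5.64 and 13.6 CPM, so its reads were lower in the knockout groups but still present. In WT TAC 87.1% of the *Cd3e* reads lay in the cells with *Cd3g* and *Trbc2*, whereas in CD3e-/- TAC 87.9% lay in gated cells, with at most 70 reads in a cell. The counts do not say whether these reads fall in the part of the gene that the knockout removes, so *Cd3e* itself does not check the label.

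**Figure D1:**
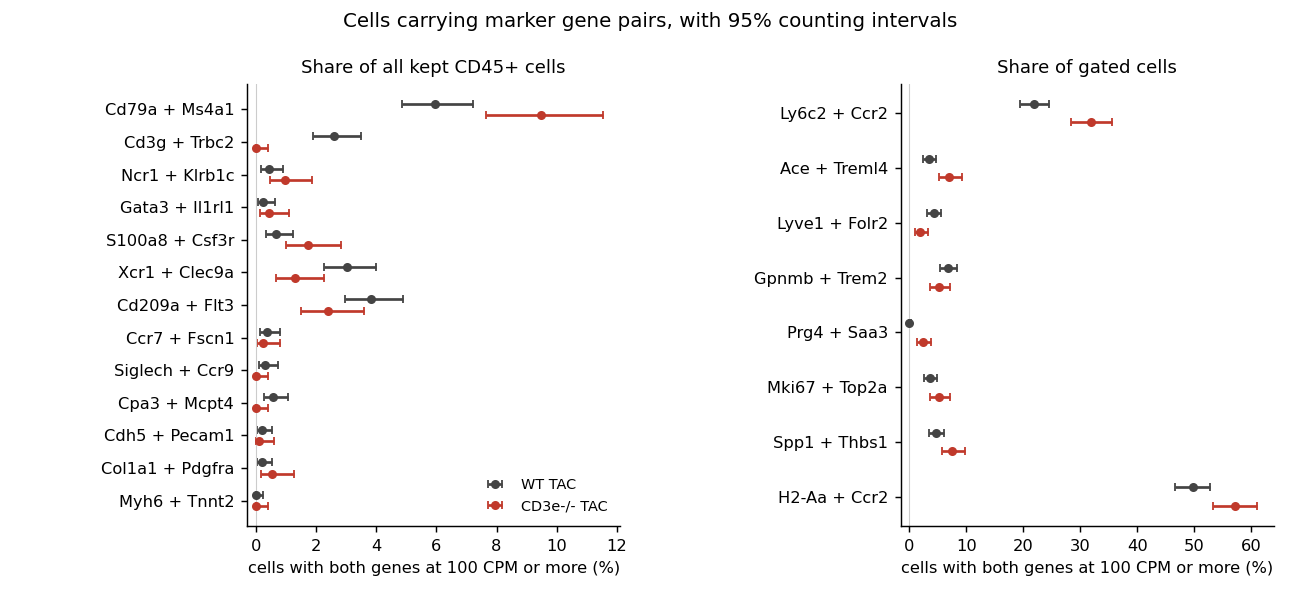
Shares of cells with at least 100 CPM of both genes of a marker pair in WT TAC (grey) and CD3e-/- TAC (red), as a percent of all kept CD45+ cells (left) or of gated cells (right), with exact 95% counting intervals. The intervals of the groups lie apart for the T cell pair *Cd3g* and *Trbc2* and the B cell pair *Cd79a* and *Ms4a1* on the left, and for *Ly6c2* with *Ccr2*, *Ace* with *Treml4*, *Prg4* with *Saa3* and *H2-Aa* with *Ccr2* on the right.

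The leukocytes of CD3e-/- TAC hearts held a larger share of B cells and none with the T cell pair, and lower measured shares of conventional dendritic cells and mast cells, whose intervals overlapped with those of WT TAC. The gate held 73.1% (70.1% to 76.0%) of the kept cells of CD3e-/- TAC and 67.8% (65.5% to 70.1%) of those of WT TAC, against 58.1% and 56.5% in CD3e-/- sham and WT sham. The share of a class also depends on how many cells of the other classes were captured. The B cell pair *Cd79a* and *Ms4a1*, a part of the B cell receptor and CD20, was found in 9.47% (7.65% to 11.5%) of the cells of CD3e-/- TAC and 5.94% (4.84% to 7.21%) of those of WT TAC. It was found in 14.1% of CD3e-/- sham and 9% of WT sham, so the knockout group was the higher in either surgery. Type 1 conventional dendritic cells, marked by *Xcr1* and *Clec9a* and specialised in presenting antigen to CD8+ T cells, were 12 cells, or 1.31% (0.676% to 2.27%), in CD3e-/- TAC and 49 cells, or 3.03% (2.25% to 3.99%), in WT TAC. Here the intervals overlapped narrowly, and in the sham groups the order was the other way, with 2.87% and 2.30%. Type 2 conventional dendritic cells, marked by *Cd209a* and *Flt3*, were 2.39% (1.51% to 3.60%) and 3.84% (2.96% to 4.89%).

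Rarer classes rested on few cells. Mast cells with *Cpa3* and *Mcpt4*, 2 proteases of their granules, were 0 of 919 in CD3e-/- TAC and 9 of 1615 in WT TAC, while both sham groups held more of them, at 3.47% and 3.60%. A single cell of CD3e-/- TAC held all of the *Cpa3* reads of that group, without *Mcpt4*. Neutrophils with *S100a8* and *Csf3r* were 16 and 11 cells, or 1.74% (0.998% to 2.81%) and 0.681% (0.340% to 1.22%). Natural killer cells with *Ncr1* and *Klrb1c* were 9 and 7 cells, and type 2 innate lymphoid cells with *Gata3* and *Il1rl1*, both able to develop without a T cell receptor, were 4 and 4 cells. Plasmacytoid dendritic cells with *Siglech* and *Ccr9* were 0 and 5 cells, and migratory dendritic cells with *Ccr7* and *Fscn1* were 2 and 6. Fibroblasts with *Col1a1* and *Pdgfra* that passed the CD45 selection were 5 and 3 cells, endothelial cells with *Cdh5* and *Pecam1* were 1 and 3, and cardiomyocytes with *Myh6* and *Tnnt2* were 0 in both. With other filters on cells, other cuts and thinned reads, no difference of these or the gated shares left its own interval in 110 of 110 repeats. The repeats reuse the same cells, and the intervals of classes of few cells are wide, so this says little about those classes.

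Over all kept CD45+ cells, few genes differed by 2-fold. Of 3777 genes with at least 50 CPM in either group, 19 were higher in CD3e-/- TAC (0.503%) and 12 lower (0.318%), 97.5% were within 1.5-fold, and the median log2 ratio was 0.00136. The genes with the lowest ratios included genes of mast cells, dendritic cells and macrophages and unnamed loci. *Mcpt4* was at 157 CPM in WT TAC and 8.71 in CD3e-/- TAC, with a log2 ratio of -3.16. *Tpsb2*, a mast cell tryptase, was at 94.2 and 15.2 CPM. Both had been higher in the sham groups, where *Mcpt4* was at 1444 CPM in WT and 742 in CD3e-/-. *Ccl22*, a chemokine of mature dendritic cells, was at 52.3 and 16.9 CPM, and 1 cell held 50% of its reads in either group. *Cd209a* was at 233 and 91.9 CPM, a log2 ratio of -1.25.

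Among the 15 highest genes were 4 made by fibroblasts, a cell that the CD45 selection should leave out. *Postn*, periostin, a matrix protein of activated fibroblasts, was at 7.71 CPM in WT TAC and 85.5 in CD3e-/- TAC. *Fstl1* was at 13.9 and 84.1 CPM, *Col8a1* at 4.36 and 53.8, and *Bgn* at 24.8 and 73.6. In CD3e-/- TAC 2 cells held 50% of the reads of each of these genes. All 5 measured members of the fibroblast list were above 0, with a median log2 ratio of 0.79. The 1 past the fold, *Postn*, reached 20 CPM through CD3e-/- TAC alone, so its count is no support. Over all genes with at least 20 CPM in all kept cells, 0.48% were higher. None of the members of the fibroblast list reached 20 CPM in the gated cells of either TAC group. The part of these few cells in the levels over all CD45+ cells was not tested.

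In the lists of other cell types, 4 of 20 T cell genes reached 20 CPM, all of them through WT TAC alone, so that they had to be lower in CD3e-/- TAC, and their number is no support. Of all 7078 genes with at least 20 CPM, 0.283% were lower and 0.48% higher. Of the 4 genes, *Thy1* was at 36.4 CPM in WT TAC and 9.99 in CD3e-/- TAC. Of 12 dendritic cell genes, 11 were below 0 and 1, *Cd209a*, was past the fold, with a median of -0.44. *Flt3*, the growth factor receptor of these cells, was at 52.5 and 25.05 CPM. Of 11 B cell genes, 10 were above 0 and none past the fold, with a median of 0.16. Of 5 neutrophil genes, all were above 0 and none past the fold, and *S100a9*, a calcium-binding alarm protein, was at 55.9 and 107 CPM. Of 4 NK cell and cytotoxic genes, none was past the fold, and *Nkg7*, a protein of cytotoxic granules shared by NK and T cells, was at 27.3 and 12.99 CPM. The cardiomyocyte and red cell lists had no member at 20 CPM.

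**Figure D2:**
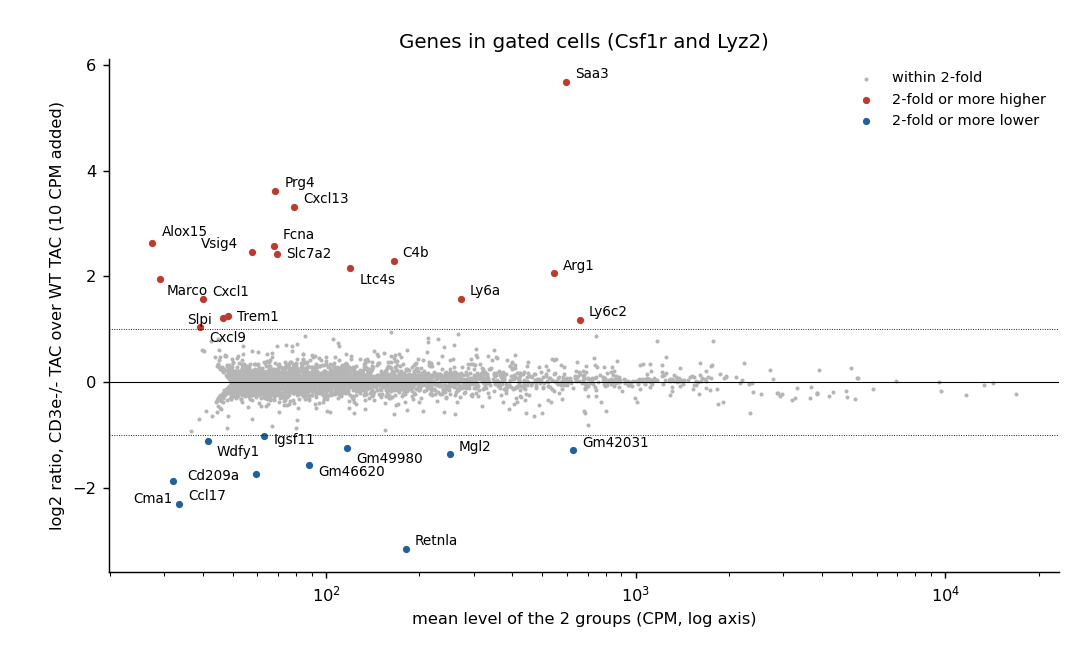
Each point is a gene with at least 50 CPM in the gated cells of WT TAC or CD3e-/- TAC, by its mean level in the groups (CPM, log axis) and its log2 ratio of CD3e-/- TAC over WT TAC with 10 CPM added. Dotted lines mark the 2-fold limits, past which 17 genes lay above and 10 below of 3668.

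Within the gated monocytes and macrophages, the largest differences on the higher side were in *Saa3* and in genes of cavity macrophages. *Saa3* is an acute-phase serum amyloid protein that is induced in inflamed macrophages. On the lower side the largest were in *Retnla*, *Ccl17*, *Cma1* and *Cd209a*. For *Ccl17* and *Cma1*, a single cell held most of the WT TAC reads. Of 3668 genes, 17 were higher in CD3e-/- TAC (0.463%) and 10 lower (0.273%), and 98.04% were within 1.5-fold. *Saa3*, at chr7:46711998-46719615, was at 7.19 and 7.04 CPM in WT sham and CD3e-/- sham, 13.1 in WT TAC, 1179 in CD3e-/- TAC and 119 in CD8 antibody TAC. Its log2 ratio was 5.68, and the sham groups did not stand apart. *Prg4*, lubricin, was at 1.80 CPM in WT TAC and 135 in CD3e-/- TAC. *Cxcl13*, a chemokine that draws B cells, was at 6.13 and 152 CPM. *Alox15*, a lipoxygenase, was at 0.428 and 54.6 CPM. *Arg1*, an arginase of alternatively activated macrophages, was at 5.004, 20.8, 204, 885 and 74.7 CPM in the 5 groups.

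The higher genes held further receptors and enzymes of macrophages. *Fcna*, ficolin A, was at 12.3 and 123 CPM in WT TAC and CD3e-/- TAC. *Vsig4*, a complement receptor, was at 10.7 and 105 CPM, and 2 cells held 50% of its reads in CD3e-/- TAC. *C4b*, a complement component, was at 49.2 and 282 CPM, while its near-identical neighbour *C4a* had 0.656 and 3.88, so that reads may be split between the copies. *Ltc4s*, which makes leukotriene C4, was at 37.5 and 202 CPM. *Slc7a2*, a carrier of arginine, was at 15.1 and 124 CPM, and *Marco*, a scavenger receptor, at 6.00 and 52.1. Of 13 serous cavity macrophage genes, 9 reached 20 CPM, 8 of them through CD3e-/- TAC alone, so that their number past the fold follows from this minimum and is no support. *Itga6*, an integrin and the member above 20 CPM in both groups, was at 171 and 177 CPM. In all of these genes, as in *Prg4* and *Cxcl13*, both sham groups were below CD3e-/- TAC. Gated cells with at least 100 CPM of both *Prg4* and *Saa3* were 16 of 672 in CD3e-/- TAC, or 2.38% (1.37% to 3.84%), and 0 of 1095 in WT TAC. CD8 antibody TAC also held them, at 7 of 607, or 1.15% (0.465% to 2.36%), an interval that overlapped with that of CD3e-/- TAC.

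A small number of cells carried much of this. Cells with at least 100 CPM of *Saa3* were 46 of 672 gated cells in CD3e-/- TAC, or 6.85% (5.05% to 9.03%), and 15 of 1095 in WT TAC, or 1.37% (0.769% to 2.25%). They were 3 and 3 cells in WT sham and CD3e-/- sham and 19 of 607, or 3.13% (1.89% to 4.85%), in CD8 antibody TAC. At least 1000 CPM was reached by 24 cells of CD3e-/- TAC and 2 of WT TAC, and 21 and 32 cells lay between 50 and 200 CPM. Single reads of *Saa3* were widespread. Thinned to 43156 reads a cell, 28.5% of the gated cells of CD3e-/- TAC and 23.5% of those of WT TAC had a read, close to the 20.4% and 17.6% of B cells, so a read alone is background. The 46 cells of CD3e-/- TAC had a median of 224765 reads against 126588 in its other gated cells and held 12.04% of the reads of the gate. Of these cells 1 carried the gene pair of another class.

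These 46 cells were described by their own levels, which follow in part from how they were chosen. Within them *Prg4* was at 1105 CPM and reached 100 CPM in 16 cells, all of which also reached it for *Arg1*. *Arg1* was at 4629 CPM and reached 100 CPM in 34 cells, against a level of 373 CPM in the other gated cells of CD3e-/- TAC. *Gata6*, the transcription factor of cavity macrophages, was read in 10 of the 46 cells, at a level of 18.8 CPM, and reached 100 CPM in 2. It was read in none of the 15 cells of WT TAC, which were shallower, with a median of 87517 reads. *Fn1*, fibronectin, was at 7600 CPM against 1519. *Ly6c2* was at 264 CPM against 1010, *Cx3cr1* at 151 against 705 and the class II gene *H2-Eb1* at 820 against 3601. Other genes of the same lists were higher there, among them the monocyte genes *F10* at 305 against 70.5 and *Lyz1* at 609 against 327, and *Ctss*, a protease of antigen presentation, at 4627 against 4169. The division genes *Mki67* and *Top2a* were at 1.38 and 2.75 CPM, against 137 and 66.0.

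**Figure D3:**
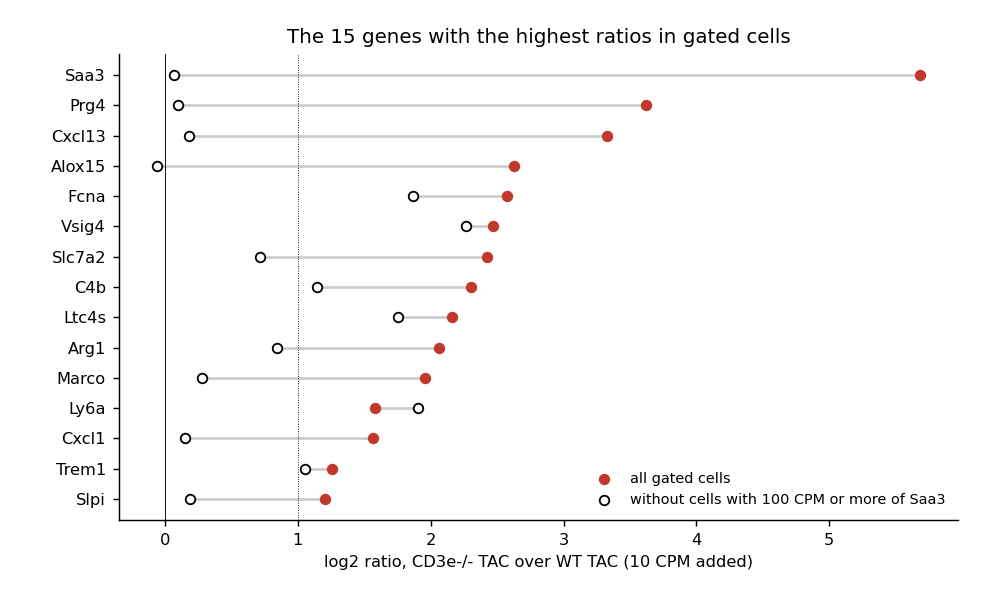
Log2 ratios of CD3e-/- TAC over WT TAC (10 CPM added) of the 15 genes with the highest ratios in gated cells, with all gated cells (red) and without cells that had at least 100 CPM of *Saa3* (open). *Vsig4*, *Ly6a*, *Fcna*, *Ltc4s*, *C4b* and *Trem1* stay past the dotted 2-fold line, and the other 9 fall below it.

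Without the cells with at least 100 CPM of *Saa3* in either group, 8 genes were higher (0.218% of 3672) and 11 lower (0.3%). Of the 17 higher genes, 8 stayed past the fold, and of the 10 lower genes all 10 did. *Prg4* then had a log2 ratio of 0.10, *Cxcl13* of 0.18, *Alox15* of -0.06, *Marco* of 0.28, *Cxcl1* of 0.15 and *Slpi* of 0.19, and *Saa3*, which chose the cells, of 0.07. *Arg1* was under the limit, at 0.85. The genes that stayed past it were *Vsig4* at 2.27, *Ly6a* at 1.91, *Fcna* at 1.86, *Ltc4s* at 1.76, *Ly6c2* at 1.44, *Cxcl9* at 1.30, *C4b* at 1.15 and *Trem1* at 1.05. With the reads of each gene's highest cell taken out of both groups, 16 of the 17 higher genes and 9 of the 10 lower ones stayed past the fold.

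*Ly6a*, which encodes the stem cell antigen Sca-1 and is induced by interferons, differed in many cells. It was at 9.95, 22.1, 132, 414 and 298 CPM in the 5 groups, and 115 of 1095 gated cells (10.5%, 8.75% to 12.5%) of WT TAC and 184 of 672 (27.4%, 24.04% to 30.9%) of CD3e-/- TAC had at least 100 CPM. Of the gated cells with *Ly6c2* and *Ccr2*, 26.2% of 240 in WT TAC and 55.1% of 214 in CD3e-/- TAC had as much. These cells passed the same cuts but were not matched, with *Ly6c2* at 1585 and 2535 CPM in them. Their median reads were 123652 and 157656, and these shares were not thinned. *Trem1*, a receptor that amplifies inflammation in myeloid cells, was at 11.9, 37.4, 24.4, 72.1 and 27.7 CPM, and the knockout group was the higher in either surgery. Thinned to equal depth, *Trem1* was read in 10.2% (8.39% to 12.3%) of gated cells in WT TAC and in 22.03% (18.8% to 25.5%) in CD3e-/- TAC, and in 0 of 51 and 0 of 49 B cells, with intervals up to 6.98% and 7.25%. On the same scale *Fcna* was read in 3.41% and 10.6%, *C4b* in 9.09% and 17.2% and *Arg1* in 8.26% and 14.5%, with B cells at 0% to 2.04%.

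Genes that were lower in the knockout belonged in part to alternative activation. *Retnla*, a secreted resistin-like protein, was at 1968, 2763, 333, 28.6 and 164 CPM in the 5 groups, and its log2 ratio after TAC was -3.15. In WT TAC 12 cells held 90% of its reads, cells with at least 100 CPM were 3.56% (2.54% to 4.84%) in WT TAC and 2.23% (1.25% to 3.65%) in CD3e-/- TAC, and these intervals overlapped. *Mgl2*, a lectin of macrophages and dendritic cells, was at 366 and 136 CPM and was broader, with 28.9% (26.3% to 31.7%) and 18.3% (15.4% to 21.4%) of gated cells at 100 CPM. *Clec10a*, a related lectin, was at 51.1 and 22.01 CPM, with a ratio of -0.93. *Cd209a* was at 96.7 and 21.9 CPM. *Cma1*, a mast cell chymase, was at 56.0 and 7.97 CPM, and a single cell held 82.5% of the reads in WT TAC. *Ccl17*, a chemokine for type 2 helper T cells, was at 62.3 and 4.65 CPM, with 67.2% of the WT TAC reads in a single cell. Of 12 alternative activation genes, 3 were lower past the fold (*Retnla*, *Ccl17* and *Mgl2*) and 1, *Arg1*, was higher, with a median of 0.05. Over all genes with at least 20 CPM 0.203% were lower and 0.406% higher. *Ccl17* reached 20 CPM through WT TAC alone, so it had to be lower and adds no support.

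Cells with genes of blood monocytes took a larger share of the gate in the knockout. Gated cells with at least 100 CPM of both *Ly6c2* and *Ccr2* were 240 of 1095 in WT TAC, or 21.9% (19.5% to 24.5%), and 214 of 672 in CD3e-/- TAC, or 31.8% (28.3% to 35.5%). They were 7.26% in WT sham, 10.1% in CD3e-/- sham and 29.8% (26.2% to 33.6%) in CD8 antibody TAC. *Ly6c2*, at chr15:75108161-75112066, was at 112, 334, 402, 920 and 943 CPM, while its close copy *Ly6c1* was at 3.29 to 8.93 CPM. Of 13 classical monocyte genes, 10 were above 0 and 1, *Ly6c2*, was past the fold, with a median of 0.44, against 0.406% of the 6899 genes with at least 20 CPM that were higher, 0.203% that were lower and a median of 0.00546. *Plac8* was at 858 and 1482 CPM. *Chil3*, a chitinase-like protein of monocytes, went the other way, at 316 and 204 CPM, and among the cells with *Ly6c2* and *Ccr2* it was at 942 and 471. *Ccr2* itself was at 1913 and 1742 CPM.

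Patrolling monocytes, the Ly6c-low kind that crawls along vessel walls, were marked by *Ace* and *Treml4*. They were 3.47% (2.47% to 4.73%) of gated cells in WT TAC and 6.99% (5.18% to 9.19%) in CD3e-/- TAC. All 10 measured genes of the patrolling list were above 0 and none past the fold, with a median of 0.36. *Nr4a1*, the transcription factor they depend on, was at 151 and 278 CPM. *Ace*, angiotensin-converting enzyme, was at 52.3, 81.5, 50.8, 77.9 and 49.7 CPM, so that it was higher in both knockout groups than in the other groups, whatever the surgery.

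The share of resident macrophages was lower in the knockout in either surgery, with intervals that overlapped after TAC and lay apart after sham surgery. Summed levels of their genes were mixed. Cells with *Lyve1* and *Folr2* were 47 of 1095, or 4.29% (3.17% to 5.67%), in WT TAC and 13 of 672, or 1.93% (1.03% to 3.29%), in CD3e-/- TAC. In WT sham and CD3e-/- sham they were 11.2% (8.68% to 14.0%) and 4.95% (3.20% to 7.27%). Of 14 resident genes, 9 were below 0, 1 was higher past the fold and the median was -0.25. Over all gated genes with at least 20 CPM, 0.406% were higher and 0.203% lower. *Mrc1*, the mannose receptor, was at 812 and 554 CPM, *Cd163*, a haemoglobin scavenger receptor, at 61.1 and 35.4, and *Pf4* at 371 and 269. *Lyve1*, a hyaluronan receptor, was at 54.5 and 79.7 CPM although fewer cells carried it, and 2 cells held 50% of its reads in CD3e-/- TAC. The gene past the fold was *Timd4*, a receptor for dead cells, at 5.63 and 22.1 CPM, whose ratio was 0.09 without the cells high in *Saa3*. *Timd4* reached 20 CPM through CD3e-/- TAC alone, so its count is no support. Cells with *Gpnmb* and *Trem2*, of the lipid-associated kind, were 6.76% (5.34% to 8.41%) and 5.21% (3.65% to 7.17%), and that list had none of 13 genes past the fold and a median of -0.01. Cells with *Spp1* and *Thbs1*, secreted matrix-binding proteins, were 4.75% (3.57% to 6.18%) and 7.59% (5.70% to 9.86%), and dividing cells with *Mki67* and *Top2a* were 3.65% (2.62% to 4.94%) and 5.21% (3.65% to 7.17%), with overlapping intervals in either case. Cells with *H2-Aa* and *Ccr2* were 49.7% (46.7% to 52.7%) and 57.1% (53.3% to 60.9%).

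**Figure D4:**
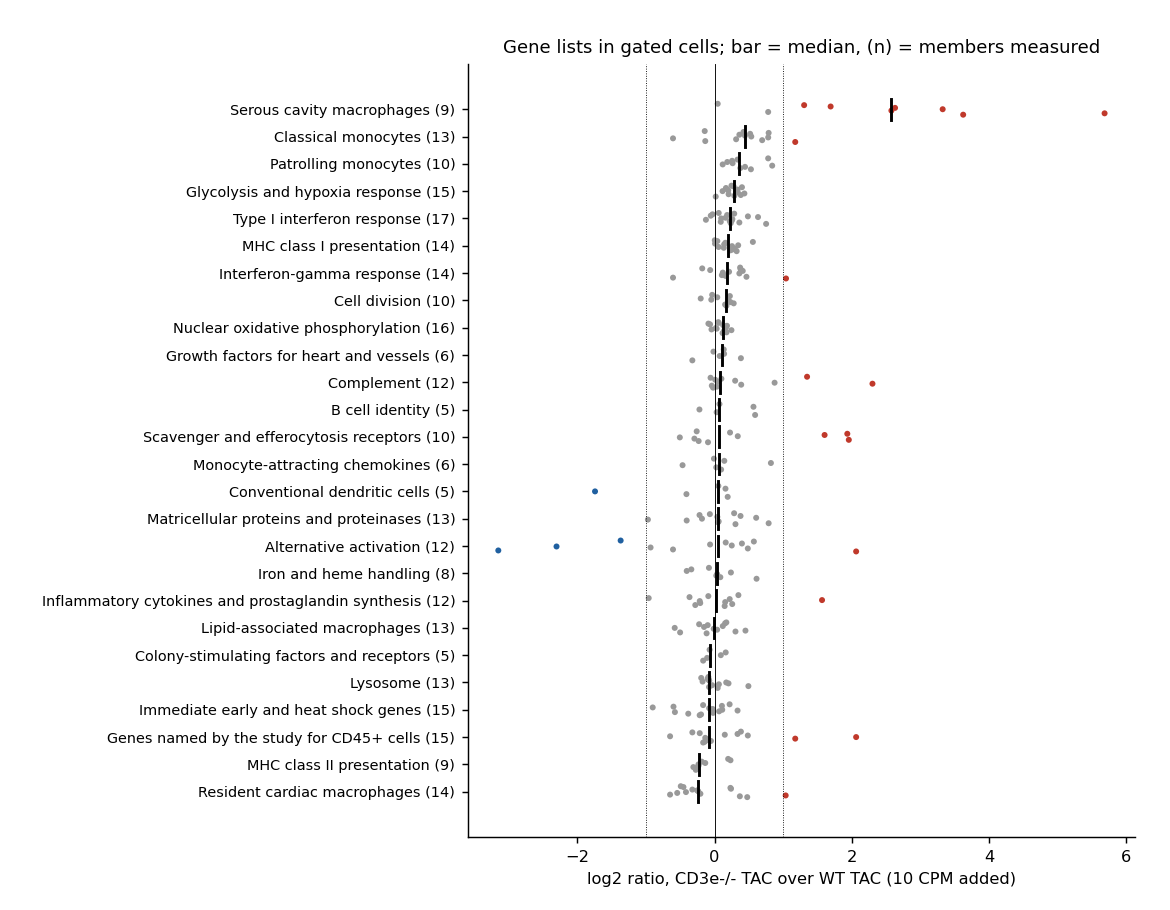
Log2 ratios of CD3e-/- TAC over WT TAC (10 CPM added) in gated cells for the members with at least 20 CPM of each gene list that had at least 5 of them, red or blue where past the dotted 2-fold lines, with the median as a black bar. The classical and patrolling monocyte lists have medians of 0.44 and 0.36 and the resident list of -0.25, while 8 of 9 serous cavity members reached 20 CPM through CD3e-/- TAC alone, so their median is not read.

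Of the measured interferon and MHC genes, through which T cells can act on macrophages, *Cxcl9* alone was past the fold. Of 14 interferon-gamma response genes, 11 were above 0 and 1, *Cxcl9*, was past the fold, with a median of 0.19. Among all gated genes with at least 20 CPM, 0.406% were higher, 0.203% were lower and the median was 0.00546. *Cxcl9* was at 22.2 and 56.3 CPM, and 2 and 3 cells held 50% of its reads. *Cxcl10*, a related chemokine, was at 202 and 129 CPM. Of 17 type I interferon genes, none was past the fold, 14 were above 0 and the median was 0.22, with *Irf7* at 236 and 372 CPM and *Isg15* at 156 and 270. Of 9 MHC class II genes none was past the fold, 7 were below 0 and the median was -0.23, with *H2-Aa* at 5266 and 4358 CPM. The direction differed between kinds of cell. Among the cells with *Ly6c2* and *Ccr2*, *H2-Aa* was at 3290 and 4447 CPM, and 47.9% and 71.0% of them had at least 100 CPM. Away from these cells and the cells high in *Saa3* it was at 5974 and 4805 CPM, with shares of 67.4% and 72.2%. After sham surgery the median of the class II list was 0.22. All 14 MHC class I genes were above 0, none past the fold, with a median of 0.19. Without the cells high in *Saa3* the medians of the interferon-gamma and type I interferon lists were 0.25 and 0.36.

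The growth factors that act on heart muscle and vessels differed little. Of 6 with at least 20 CPM none was past the fold and the median was 0.10. *Igf1*, insulin-like growth factor, was at 213 CPM in WT TAC and 169 in CD3e-/- TAC, and *Osm*, oncostatin M, at 121 and 161. *Areg*, amphiregulin, stayed under 20 CPM, at 5.98 and 9.86. Of the genes the study named for CD45+ cells, 2 of 15 were past the fold, *Arg1* and *Ly6c2*, and this list was chosen on these cells. For comparison, 0.406% of all gated genes with at least 20 CPM were higher and 0.203% lower. *Msr1*, a scavenger receptor, was at 293 and 415 CPM, *Tlr4* at 38.4 and 51.1, *Ptgs2*, which makes prostaglandins, at 47.7 and 39.7, and *Adgre1*, an adhesion receptor of macrophages, at 427 and 402. *Nos1* was at 1.64 and 1.70 CPM, *Il10* at 3.40 and 4.47 and *Csf1* at 7.97 and 11.4. None of these 3 reached 20 CPM in either group.

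All 15 genes of glycolysis and the response to low oxygen were above 0 and none past the fold, with a median of 0.28, which was 0.18 without the cells high in *Saa3*. *Ldha*, lactate dehydrogenase, was at 388 and 508 CPM and *Aldoa*, aldolase, at 456 and 621. After sham surgery the median of these genes was 0.26. The 16 genes of oxidative phosphorylation had a median of 0.12, the lysosome list -0.08, iron handling 0.03, cell division 0.16, colony-stimulating factors and receptors -0.07 and immediate early and heat shock genes -0.08, with none past the fold. *Hspa1a*, a heat shock protein that rises on cell dissociation, was at 205 and 105 CPM, and its near-identical copy *Hspa1b* at 42.5 and 24.7. Of 12 complement genes 2 were higher past the fold, *C4b* and *Cd55*, a shield against complement, at 4.41 and 26.7 CPM. Of 10 scavenger receptors 3 were higher, *Marco*, *Cd5l* and *Olr1*, and none was past the fold without the cells high in *Saa3*. These 3 and *Cd55* reached 20 CPM through CD3e-/- TAC alone, so their number is no support. Over all gated genes with at least 20 CPM, 0.406% were higher and 0.203% lower. Of 12 inflammatory genes 1 was higher, *Cxcl1*, which also reached 20 CPM through CD3e-/- TAC alone, so this count is no support either. *Il1b* was at 487 and 541 CPM. Of 13 matrix proteins and proteinases none was past the fold, *Mmp13*, a collagenase, being at 43.4 and 17.2 CPM, and of 6 monocyte-attracting chemokines none was, *Ccl12* being at 164 and 298.

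**Figure D5:**
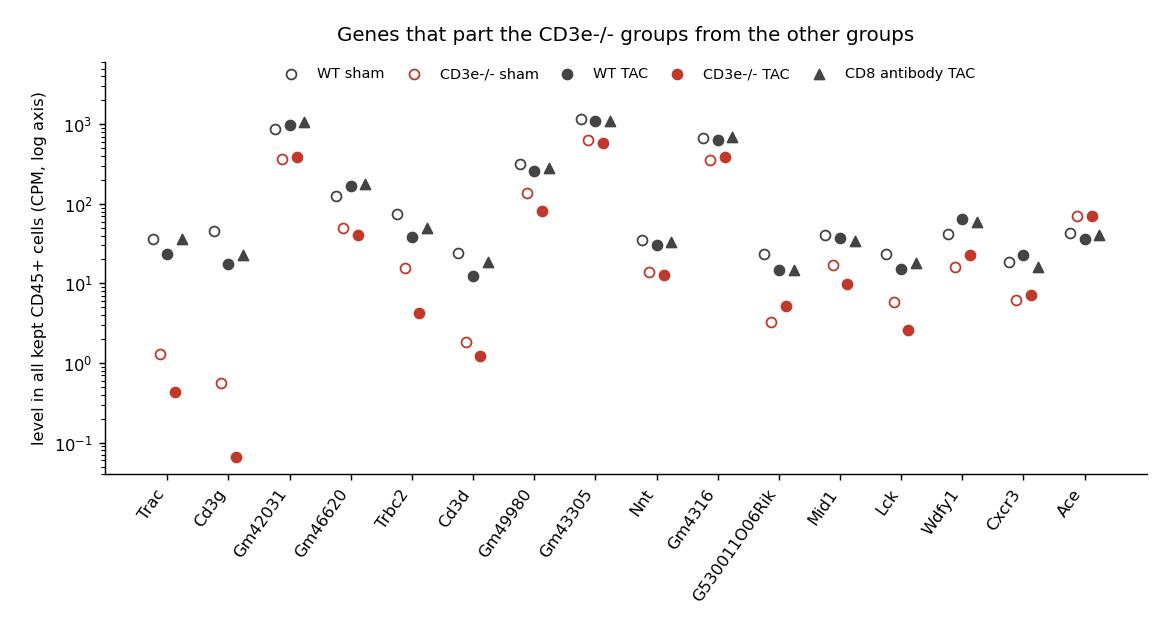
Levels over all kept CD45+ cells (CPM, log axis) of the 16 genes that part both CD3e-/- groups (red) from the 3 other groups (grey) by at least 1.5 times, for sham (open circles), TAC (filled circles) and CD8 antibody TAC (triangles). *Ace* is the gene that lies higher in the knockout groups, and the other 15 lie lower.

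Part of the difference between genotypes was present in either surgery. Over all kept cells, 15 of 7597 genes (0.197%) were lower in both CD3e-/- groups than in each of the 3 other groups by at least 1.5 times, and 1 (0.0132%), *Ace*, was higher, a rule set after the values were seen. Of the 15 lower genes, 5 were in the T cell or NK cell lists, namely *Trac*, *Cd3g*, *Trbc2*, *Cd3d* and *Lck*, and *Cxcr3*, a chemokine receptor of activated T cells, was at 22.7 CPM in WT TAC and 7.10 in CD3e-/- TAC. The others are not known as T cell genes and were lower in gated cells as well. *Nnt*, a mitochondrial transhydrogenase at chr13:119335527-119409257, was at 32.6 CPM in WT TAC and 13.3 in CD3e-/- TAC in gated cells, and at 43.5 and 16.4 in the sham groups. *Wdfy1* was at 60.5 and 22.6 CPM after TAC and 36.3 and 16.8 after sham surgery. *Mid1*, on chromosome X, was at 34.2 and 10.5 CPM, and *G530011O06Rik*, which overlaps it so that reads may be shared, at 18.4 and 5.78. The unnamed loci *Gm42031*, *Gm46620*, *Gm49980*, *Gm43305* and *Gm4316* had the highest levels of the group, with *Gm42031* at 895 and 360 CPM. Part of *Nnt* is deleted in the C57BL/6J substrain of mice and intact in C57BL/6N. A difference of substrain and the loss of CD3e cannot be told apart in these groups. Of the 10 genes that were lower in gated cells after TAC, 3 were also past the fold in the same direction after sham surgery, and of the 17 higher ones 3 were. The share of all genes past the fold after sham surgery was not counted, so this overlap is no support.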

How the data were processed

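Heart CD45+ cells of 5 hashtagged groups were sequenced as 1 pooled library (BD Rhapsody, TAS-Seq). The values, as deposited, are raw counts of reads for every gene in every cell and do not count molecules. The submitters' processing notes name cutadapt 2.10, Bowtie2 2.4.2 and GRCm38, and the deposited notes link each hashtag to its group. Doublets were called by the authors from hashtags, no further caller was run, and 48 columns of the table with no assigned group were not used. Gene positions are those of RefSeq (GRCm38.p6).

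Cells, genes, lists and marker pairs were chosen with earlier results of these data known. Counts of a group's cells were summed per gene and scaled to CPM, with 10 CPM added for log2 ratios. Genes with at least 50 CPM in either TAC group were named by the 15 highest and 15 lowest ratios, and of each list the defining members and those of largest ratio with at least 20 CPM were named. The genes of the gate are members of the lists of colony-stimulating factors and of genes named by the study. A marker pair needed 100 CPM of each gene. Shares have exact Clopper-Pearson intervals. For shares of cells with a read, cells were thinned to 43156 reads, which left out 127 gated cells of WT TAC and 50 of CD3e-/- TAC. The steps (Python 3.11.15, numpy 2.4.6, scipy 1.17.1, pandas 2.3.3) were checked on simulated data. Each group was 1 sample, so no test was run. Other pseudocounts, filters, gates and cuts and leaving out cells high in *Saa3* were tried as alternatives.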

Additional observations from a re-analysis of the deposited data

Results flagged for a closer look

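*Ccl17* stood out because its difference between genotypes ran opposite ways in the surgeries. In gated cells its log2 ratio of CD3e-/- over WT was -2.30 after TAC and 2.27 after sham surgery. It was at 1.37 CPM in WT sham, 44.9 in CD3e-/- sham, 62.3 in WT TAC and 4.65 in CD3e-/- TAC. The difference between surgeries was not tested, since each group was 1 sample. A single cell held 67.2% of the reads in WT TAC, and without the highest cell of each group the ratio after TAC was -1.26.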

How the results depend on the processing

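No paired analysis was possible because each group was 1 sample. Over all CD45+ cells the 19 higher and 12 lower genes became 34 and 20 with a minimum of 20 CPM and 39 and 24 with no minimum, and the higher genes became 11 with 50 CPM added and 12 without cells high in *Saa3*, a setting chosen after seeing the data. In gated cells the 17 higher genes became 28 with a minimum of 20 CPM, 34 with no minimum, 11 without cells with *Prg4* and *Saa3* and 8 without cells high in *Saa3*, and the 10 lower genes became 6 with 50 CPM added. List members over all cells, 16 higher and 13 lower, became 8 and 5 with 50 CPM added, and the higher ones 10 among genes with at least 50 CPM, 10 without cells with *Prg4* and *Saa3* and 6 without cells high in *Saa3*. List members in gated cells, 19 higher and 9 lower, became 10 and 4 with 50 CPM added. The higher ones became 10 without cells with *Prg4* and *Saa3* and 6 without cells high in *Saa3*, and the lower ones 15 with 1 CPM added and 5 without the highest cell of each gene. *Alox15* turned to -0.060 in gated cells without cells with *Prg4* and *Saa3* and to -0.061 without cells high in *Saa3*. Of 719 repeats of single genes, 658 kept their direction and side of the fold, 59 were no longer past it and 2 reversed. Apart from these constructions the causes were not tested. Without replicates, no value here has an error between animals, and rare classes rest on few cells.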

Other observations

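*Plin2*, which coats lipid droplets, had like summed levels in the gated cells of WT TAC and CD3e-/- TAC, at 230.6 and 261 CPM, with a log2 ratio of 0.17. The share of gated cells with at least 100 CPM was 42.3% in WT TAC and 58.0% in CD3e-/- TAC. Thinned to equal depth, a read was found in 53.1% and 67.5% of gated cells.

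Away from the cells with *Ly6c2* and *Ccr2* and the cells high in *Saa3*, *Spp1*, osteopontin, was at 646 CPM in WT TAC and 1026 in CD3e-/- TAC. Cells with at least 100 CPM of it were 23.82% and 35.14% there. Among the cells with *Ly6c2* and *Ccr2* its summed level went the other way, at 482 and 214 CPM. The share at 100 CPM did not, at 43 of 240 cells (17.92%) in WT TAC and 47 of 214 (21.96%) in CD3e-/- TAC. These shares were not thinned to equal depth.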
